A study of Homo sapiens with 24 samples.

Results

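Oxidative phosphorylation is the step of respiration in which electrons pass along protein complexes I to IV of the inner mitochondrial membrane and the proton gradient they build drives complex V, the ATP synthase. The genes described here are the nuclear genes of this system, chosen by name: the subunits and assembly factors of complex I (NDUFA, NDUFB, NDUFC, NDUFS, NDUFV and NDUFAF genes), the subunits of complex II or succinate dehydrogenase (SDHA to SDHD), and the genes of complex III (UQCR genes and CYC1), complex IV or cytochrome c oxidase (COX genes) and complex V (ATP5 genes). By exception, NDUFA4 was counted as a subunit of complex IV and ATP5SL as an assembly factor of complex I. Of the 57820 gene rows counted, 160 matched the name rule. The 55 whose names end in P and digits, the usual mark of a pseudogene, were left out, which gave 105 rows for 101 gene symbols, since NDUFA7, NDUFB8, SDHD and UQCR11 have a second row each.

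RNA was sequenced from U2OS cells, a human osteosarcoma line, in 24 libraries that form 8 groups of 3 replicates. AID-DIvA U2OS cells, which carry the AsiSI restriction enzyme with an auxin-controlled degron, had either intact ID3 (WT) or an ID3 knockout (ID3-KO), and were untreated or given mocetinostat, an inhibitor of class I histone deacetylases, for 24 h followed by 24 h of recovery. Cells labelled U2OS, WT or ID3-KO, were untreated or given mocetinostat for 24 h without recovery, a stage read from the deposited design and the methods. Their library names also contain DivA, so whether they carry the same construct is not settled by the labels. The stage and the line label cannot be told apart, no dose is stated for this experiment, and the sources used here do not say whether an ID3-KO line is 1 clone. In the AID-DIvA libraries, all 12, the treatment entry names the opposite condition to the title and library name, and groups were taken from the titles.

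Mitochondria carry their own genome for a few core subunits, but most subunits of complexes I, III, IV and V and all of those of complex II are encoded in the nucleus and imported. NRF1, GABPA (an ETS factor), YY1 and ESRRA, with the coactivators PPARGC1A, PPARGC1B and PPRC1, are textbook regulators of these genes. Some subunits of complex IV exist in pairs, with one form found in most tissues and another in tissues such as heart, muscle or testis.

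Total counts ran from 37878751 to 76906266 per library. The U2OS WT untreated replicate 1 stood apart: it differed from the other replicates of its group by a chi-square of 91.1 and 103 per gene, against 2.79 to 27.3 in the 22 other pairs of replicates, and the oxidative phosphorylation genes took 1.09% of its counts, against 0.757% to 0.866% in all other libraries. The main counts of members, in all and by complex, and calls of named members of the system that change without it, are given with and without it. Counts for the other gene lists, for the overlap with recovered cells and for promoters use all libraries. Levels are given as CPM, counts of the gene scaled to a library total of 1e6 after adjusting each total by its TMM factor. ID3 was still counted in the ID3-KO libraries, at 29.3 to 38.8 CPM untreated and 30.4 to 67.3 CPM treated. In WT libraries it was at 47.9 to 80.7 and 77.6 to 129 CPM. Of the bone-lineage markers, COL1A1 (824 to 2528 CPM) and SPARC (871 to 1550 CPM) were abundant. RUNX2 (11.8 to 47.9 CPM), SPP1 (14.97 to 61.02 CPM) and ALPL (0.618 to 6.95 CPM) were lower but present in every library. SP7, IBSP, BGLAP and COL1A2 were at most 0.114, 0.403, 0.689 and 1.37 CPM. The 9 bone-lineage markers summed to 3811 to 4150 CPM in untreated and 2416 to 2638 CPM in treated U2OS WT cells, and to 3047 to 3230 and 1983 to 2156 CPM in U2OS ID3-KO cells. In AID-DIvA cells they summed to 2694 to 2827 CPM untreated and 1771 to 2240 CPM recovered (WT) and to 2960 to 3275 and 2230 to 2372 CPM (ID3-KO). The sum, made up mostly of COL1A1 and SPARC, was thus lower with treatment in all 4 pairs of groups. Single markers went both ways (edgeR, adjusted p below 0.05). Of 8 tested under mocetinostat in U2OS cells, 3 were higher and 4 lower in ID3-KO and 2 higher and 4 lower in WT cells. Of 7 tested after recovery, 3 were higher and 2 lower in ID3-KO and 2 higher and 1 lower in WT cells. The part of these markers in the results was not tested. The 4 leukocyte markers together reached at most 0.925 CPM in any library and the 4 epithelial markers 253 to 441 CPM.

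Promoter sequences from RefSeq (GRCh38.p14, a later build than the hg19 of the counts) were matched to 80 of the 101 symbols. In the window from 250 bases before to 50 after the start, the NRF1 core (GCGCA and GCGC around 1 free base) stood in 19 of the 80 promoters (23.8%), against 6.28% of all 27305 promoters in the table. The ETS core CCGGAAG stood in 23 (28.8%, against 10.7% of all), the YY1 core AANATGGC also in 23 (28.8%, against 6.82%), the GC box GGGCGG in 45 (56.3%, against 44.6%) and the TATA box TATAAA in 8 (10%, against 11.95%), each on either strand. A match describes the letters and not binding. Below are the 250 bases before the start of 4 genes on which the results turn: NDUFS3 and NDUFA9, among those that fell most under mocetinostat, COX6B2, which rose, and NDUFB11, which was lower in ID3-KO cells. Capitals mark NRF1, ETS and YY1 matches.
NDUFS3 (chr11:47578824-47579073, plus strand): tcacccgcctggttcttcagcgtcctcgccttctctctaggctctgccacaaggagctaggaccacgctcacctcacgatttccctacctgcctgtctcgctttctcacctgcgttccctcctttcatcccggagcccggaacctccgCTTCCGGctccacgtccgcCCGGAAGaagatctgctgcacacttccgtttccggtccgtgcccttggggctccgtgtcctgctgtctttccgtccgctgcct
NDUFA9 (chr12:4648864-4649113, plus strand): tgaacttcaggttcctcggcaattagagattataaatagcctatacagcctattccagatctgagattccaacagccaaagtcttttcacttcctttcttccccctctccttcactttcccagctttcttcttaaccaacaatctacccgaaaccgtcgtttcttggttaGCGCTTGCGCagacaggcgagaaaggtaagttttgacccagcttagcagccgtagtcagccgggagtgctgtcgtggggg
COX6B2 (chr19:55354720-55354969, minus strand): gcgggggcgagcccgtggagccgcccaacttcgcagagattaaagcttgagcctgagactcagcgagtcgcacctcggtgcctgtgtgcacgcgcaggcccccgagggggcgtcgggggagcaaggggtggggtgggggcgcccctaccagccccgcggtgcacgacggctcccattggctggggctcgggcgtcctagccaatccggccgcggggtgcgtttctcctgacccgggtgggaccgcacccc
NDUFB11 (chrX:47144703-47144952, minus strand): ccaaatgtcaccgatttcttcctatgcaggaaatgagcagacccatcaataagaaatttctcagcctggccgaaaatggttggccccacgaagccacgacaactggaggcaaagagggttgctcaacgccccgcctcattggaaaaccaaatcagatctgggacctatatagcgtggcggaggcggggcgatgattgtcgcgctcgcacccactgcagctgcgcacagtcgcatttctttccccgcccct
The stretch before NDUFS3 holds 2 ETS cores, one of which overlaps a GC box, and that before NDUFA9 holds an NRF1 core. Neither COX6B2 nor NDUFB11 has an NRF1, ETS or YY1 match there, though each has a GC box. NDUFS3 and NDUFA9 each have a YY1 core within the first 50 bases past the start.

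Levels were compared between genes only as CPM per kb of exonic length, averaged over the groups. By that measure the most abundant subunit was NDUFS5 for complex I (237 CPM per kb), SDHC for complex II (36.3 CPM per kb), CYC1 for complex III (121 CPM per kb), COX8A for complex IV (217 CPM per kb) and ATP5B, the catalytic beta subunit, for complex V (324 CPM per kb). At the other end, COX4I2, COX7B2, COX8C, ATP5L2 and ATP5J2LP had at most 6, 1, 6, 1 and 4 counts in any library. These 5 and the 4 second rows were below the filter on low counts in every comparison, and COX6A2 passed it in 3 of the 9 comparisons, so 95 or 96 of the 105 rows were tested in each.

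Strand mattered for some of the rows, because the counts used here take reads from either strand. A gene row on the opposite strand overlapped 50 of the 105 rows, and one on the same strand overlapped 42. For 8 rows own-strand counts were more than 1.2 times the either-strand counts. These were COX20 (21.1), ATP5I (2.11), ATP5L (1.46), NDUFS7 (1.36), NDUFB2 (1.33), NDUFA2 (1.30), NDUFB9 (1.26) and ATP5O (1.24). COX7A1, a heart and muscle form of a complex IV subunit, had group means of 0.386 to 0.55 CPM, but none of its reads lay on its own strand. COX6A2, another heart and muscle form, had group means of 0.0513 to 0.201 CPM from either strand and at most 0.0115 CPM on its own strand. COX20, an assembly factor of complex IV, had group means of 1.76 to 3.44 CPM from either strand and 43.04 to 71.6 CPM when its own strand alone was counted.

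The summed transcripts of the nuclear subunit genes were fewer under mocetinostat in U2OS cells and more after recovery in AID-DIvA cells. The sum was 7946, 8171 and 8115 CPM in untreated and 6842, 6853 and 6884 CPM in treated U2OS ID3-KO libraries. In U2OS WT cells it was 10592, 7932 and 8032 CPM untreated and 6829, 6771 and 7013 CPM treated. The treated libraries lay below all untreated ones in both genotypes, and the first WT untreated replicate was high on its own. In AID-DIvA WT cells the sum was 7705, 8054 and 8022 CPM untreated and 8447, 8326 and 8246 CPM recovered, and in ID3-KO cells 7596, 7469 and 7699 CPM untreated and 8796, 8503 and 8192 CPM recovered, so that here the treated libraries were the higher ones. Complex II went its own way in U2OS WT cells, where its sum of 402, 349.8 and 345 CPM untreated overlapped 353, 349.6 and 352 CPM treated. These sums are relative to all counted RNA after TMM scaling and are not plain shares of counts. As plain shares, all member rows took 0.849% to 0.865% of counts in untreated and 0.775% to 0.786% in treated U2OS ID3-KO libraries. The U2OS WT shares were 0.861% to 1.09% and 0.782% to 0.802%. In AID-DIvA cells they were 0.795% to 0.831% untreated and 0.856% to 0.860% recovered (WT) and 0.757% to 0.792% and 0.836% to 0.861% (ID3-KO). In bulk libraries fewer cells of a type and less RNA per cell cannot be told apart.

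**Figure D1:**
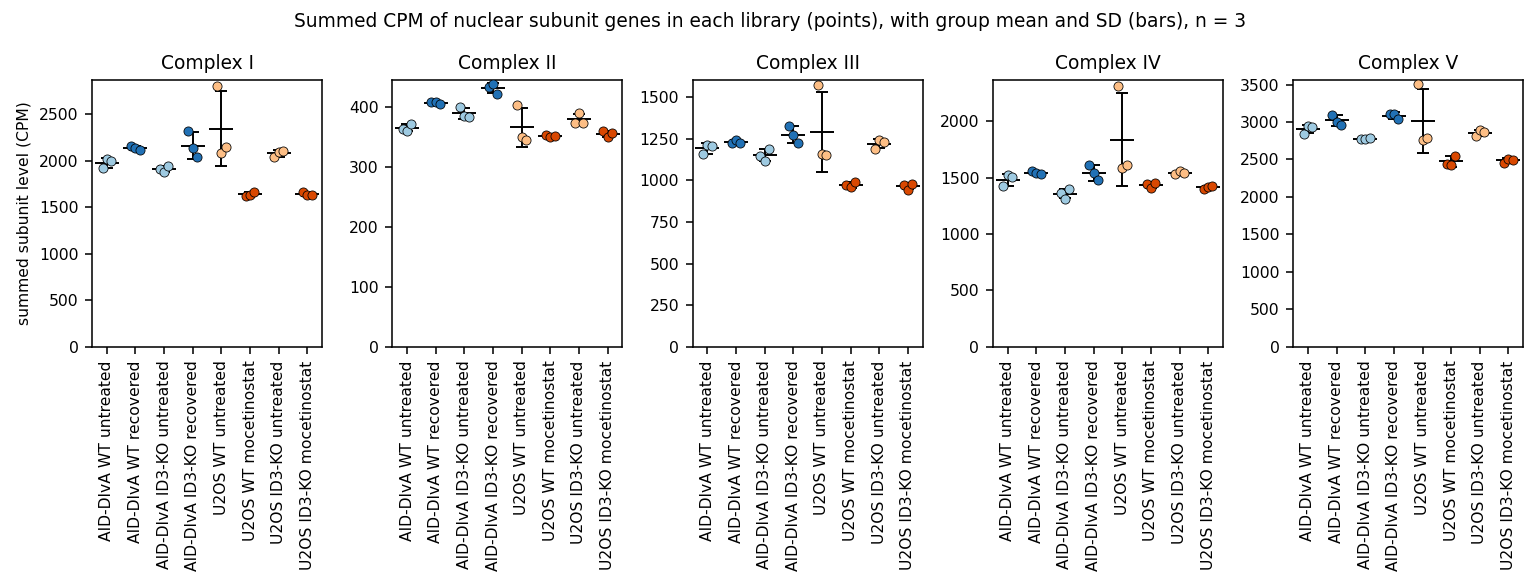
Summed level in CPM (y axis, from 0) of the nuclear subunit genes of each complex in each of the 24 libraries (points), by group (x axis), with the group mean and SD (n = 3). For complex I the treated U2OS libraries lie between 1625 and 1667 CPM, below all untreated U2OS libraries (2041 to 2806 CPM), and the U2OS WT untreated replicate 1 is the highest point of complexes I, III, IV and V.

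Among genes of the respiratory complexes, far more were lower than higher under mocetinostat in U2OS cells collected without recovery. In ID3-KO cells 62 of 96 genes tested were lower and 12 higher (quasi-likelihood test of edgeR, Benjamini-Hochberg adjusted p below 0.05), where 34.0% of all 21176 genes were lower and 35.8% higher. In the fit of all U2OS groups together, 39 were lower and 5 higher in ID3-KO cells. The share of all genes called in that fit is not given here. In WT cells 43 of 95 were lower and 2 higher, where 22.9% of all 21797 genes were lower and 26.0% higher. The members' median log2 fold change was -0.20 in ID3-KO and -0.36 in WT cells, beside 0.00 and 0.01 over all genes tested. All 43 genes lower in WT cells were among the 62 lower in ID3-KO cells, 100% of the first list and 69.4% of the second, and these comparisons share no library. Without the WT untreated replicate 1, 59 genes were lower and 9 higher in WT cells (32.5% and 33.9% of all genes) with a median of -0.23, and 58 of the 59 were also lower in ID3-KO cells. Leaving out WT mocetinostat replicate 1 or 2 left 27 and 26 genes called in either direction, with no share of all genes given for these fits.

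Complex I, which takes electrons from NADH, had the lowest median of the complexes in both genotypes. Of its 36 subunit genes, 28 were lower and 3 higher in ID3-KO cells and 22 were lower in WT cells, with medians of -0.34 and -0.50. Without the WT untreated replicate 1, 28 were lower and 1 higher in WT cells, with a median of -0.32. Shares of all genes were 34.0% lower and 35.8% higher in ID3-KO and 22.9% and 26.0% in WT cells. Without that replicate the WT shares were 32.5% and 33.9%. NDUFS3, a core subunit of the arm that reaches into the matrix (hg19 chromosome 11, 47586888 to 47606114), stood at 83.5, 90.01 and 87.6 CPM in untreated and 39.4, 40.4 and 40.8 CPM in treated ID3-KO libraries. In WT libraries it was at 109, 85.6 and 88.2 CPM untreated and 46.1, 42.2 and 47.1 CPM treated. Every treated library was far below every untreated one. Its change was -1.11 ± 0.05 on the log2 scale (± SE, edgeR adjusted p = 1.5e-15) in ID3-KO and -1.05 ± 0.11 (adjusted p = 0.00018) in WT cells, or -0.93 in WT cells without the untreated replicate 1.

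NDUFA9, an accessory subunit (hg19 chromosome 12, 4758261 to 4798454), went from 34.8, 36.97 and 35.8 CPM to 19.5, 19.5 and 19.4 CPM in ID3-KO cells. In WT cells it went from 46.2, 30.3 and 28.6 CPM to 18.8, 18.1 and 20.4 CPM. It fell by 0.87 and 0.87 on the log2 scale, and by 0.61 in WT cells without the untreated replicate 1, the highest of its group. NDUFS8, an iron-sulfur subunit (-0.67 in ID3-KO and -0.78 in WT), and NDUFA10 (-0.63 and -0.66) were lower in both genotypes. The complex I subunits called higher in ID3-KO cells were NDUFA8 (0.26), NDUFB9 (0.19) and NDUFC2 (0.26), none of which was called in WT cells with all libraries. Without the WT untreated replicate 1, NDUFA8 was called higher there too (0.30, adjusted p = 1.3e-07).

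In complex III, which passes electrons from ubiquinol to cytochrome c, 7 of 9 genes were lower in ID3-KO and 4 in WT cells. Without the WT untreated replicate 1, 6 were lower in WT cells. Of all genes 34.0% were lower in ID3-KO and 22.9% in WT cells, or 32.5% in WT cells without that replicate. CYC1, which codes for cytochrome c1, was at 272, 284 and 288 CPM in untreated and 183, 154 and 169 CPM in treated ID3-KO libraries. In WT libraries it was at 347, 250.4 and 239.7 CPM untreated and 180.4, 176 and 182 CPM treated. It fell without overlap in both, by 0.73 and 0.63 on the log2 scale, and by 0.44 in WT cells without the untreated replicate 1. UQCR11 (-0.05 and -0.01) and UQCRH (-0.01 and -0.27) were not called in either genotype.

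For the ATP synthase, 11 of 15 genes were lower and 1 higher in ID3-KO cells and 9 were lower in WT cells. Without the WT untreated replicate 1, 11 were lower and 2 higher in WT cells. Shares of all genes were 34.0% lower and 35.8% higher in ID3-KO and 22.9% and 26.0% in WT cells. Without that replicate the WT shares were 32.5% and 33.9%. The genes that code for the same c subunit of its membrane ring differed in their values. ATP5G2 was at 264, 262 and 267 CPM in untreated and 150.3, 147 and 160.5 CPM in treated ID3-KO libraries and fell by 0.78 on the log2 scale, and by 0.81 in WT cells. ATP5G1 was at -0.36 (adjusted p = 2.0e-07) in ID3-KO cells and -0.35 (adjusted p = 0.11) in WT cells, or -0.13 (adjusted p = 0.0054) without the WT untreated replicate 1. ATP5G3 went up from 165, 169.8 and 165 CPM to 206, 199 and 202 CPM in ID3-KO cells, a log2 change of 0.29 (adjusted p = 1.7e-06), and was at 0.15 (adjusted p = 0.35) in WT cells, or 0.29 (adjusted p = 2.1e-10) without that library. ATP5B, the most abundant subunit per kb, was at 0.03 and -0.03 and was not called in either genotype.

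Complex II also works in the citric acid cycle, and its genes were less uniform. SDHC, a membrane anchor, fell from 75.001, 73.8 and 70.8 CPM to 50.5, 53.98 and 55.3 CPM in ID3-KO cells and from 78.7, 73.2 and 70.6 CPM to 55.9, 58.2 and 59.5 CPM in WT cells, by 0.45 and 0.35 on the log2 scale. SDHA, the flavoprotein that oxidises succinate, was at 0.02 in ID3-KO and 0.02 in WT cells and was not called. SDHB, the iron-sulfur subunit, was at 0.00 and 0.13, also not called, although without the WT untreated replicate 1 it was called higher in WT cells (0.24, adjusted p = 5.3e-07). SDHD, the other anchor, was lower in ID3-KO cells (-0.17, adjusted p = 0.0038) and at -0.30 (adjusted p = 0.14) in WT cells.

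**Figure D2:**
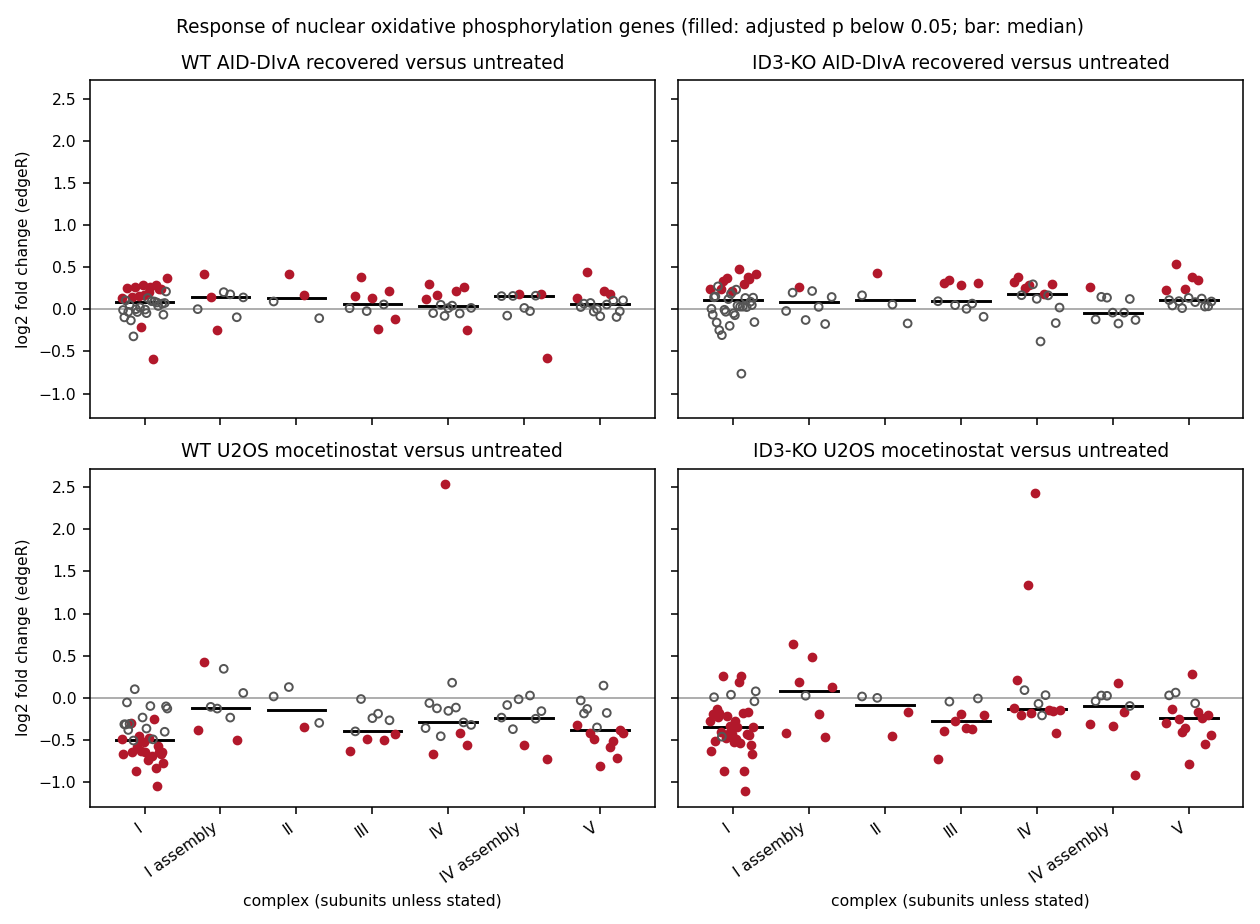
The log2 fold change of each gene tested (y axis), grouped by complex and role (x axis), in the 4 treatment comparisons; filled points have an adjusted p below 0.05 and the bar is the median. In U2OS cells the complex I medians are -0.50 (WT, or -0.32 without the untreated replicate 1) and -0.34 (ID3-KO), with COX6B2 at 2.54 and 2.43 far above the rest of complex IV, and in recovered AID-DIvA cells the complex I medians are 0.09 and 0.11.

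Complex IV reduces oxygen to water, and its genes went both ways. In ID3-KO cells 7 of the 14 subunit genes tested were lower and 3 higher, where 34.0% of all genes were lower and 35.8% higher. In WT cells 3 of 13 were lower and 1 higher, where 22.9% and 26.0% of all genes were. Without the WT untreated replicate 1, 7 were lower and 2 higher in WT cells, where 32.5% and 33.9% of all genes were. COX6B2, the testis form of subunit 6B (hg19 chromosome 19, 55860674 to 55866182), had 0.892, 1.15 and 0.838 CPM in untreated and 5.497, 4.88 and 5.14 CPM in treated ID3-KO libraries. In WT libraries it had 0.6502, 0.565 and 0.606 CPM untreated and 3.48, 3.69 and 3.36 CPM treated. All treated libraries lay above all untreated ones, by 2.43 ± 0.13 on the log2 scale (± SE, edgeR adjusted p = 2.2e-13) in ID3-KO and 2.54 ± 0.14 (adjusted p = 8.0e-06) in WT cells. On its own strand alone these were 2.77 and 3.21. Its common counterpart COX6B1 was at 155, 170.5 and 164 CPM untreated and 142, 143 and 146 CPM treated in ID3-KO libraries, a log2 change of -0.18 (adjusted p = 0.00094), and at -0.46 (adjusted p = 0.062) in WT cells, or -0.21 (adjusted p = 5.1e-07) without the WT untreated replicate 1.

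COX6A2 was called higher in ID3-KO cells, from 0.0776, 0.101 and 0.0535 CPM to 0.185, 0.22002 and 0.197 CPM (1.34 ± 0.47 on the log2 scale, adjusted p = 0.014). These reads lay almost wholly on the other strand, DESeq2 gave an adjusted p of 0.063, and without the ID3-KO untreated replicate 3 it was 0.075. Of the forms found in most tissues, COX8A was lower in both genotypes (-0.42 and -0.56), while COX6A1 (0.09 and -0.13) and COX7A2 (0.03 and -0.12) were not called. COX4I1 was lower in ID3-KO cells (-0.12) and at -0.36 (adjusted p = 0.098) in WT cells, or -0.14 (adjusted p = 0.00019) without the WT untreated replicate 1. COX7B (-0.15 and -0.42) and ATP5L of the ATP synthase (-0.20 and -0.38) were lower in both. COX5A was higher in ID3-KO cells (0.21, adjusted p = 0.00047) and at -0.06 in WT cells, or 0.12 (adjusted p = 0.0071) without the untreated replicate 1.

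Assembly factors were called in both directions. Of the 17 tested, 41.2% were lower and 29.4% higher in ID3-KO cells, where 34.0% and 35.8% of all genes were. In WT cells 23.5% were lower and 5.88% higher, where 22.9% and 26.0% of all genes were. Of the 8 genes for assembly of complex I, 4 were higher and 3 lower in ID3-KO cells, and 1 was higher and 2 lower in WT cells. Without the WT untreated replicate 1, 2 were higher and 2 lower in WT cells. NDUFAF1, which helps to build the membrane arm, was at 10.5, 11.3 and 9.48 CPM in untreated and 15.4, 16.9 and 16.2 CPM in treated ID3-KO libraries. In WT libraries it was at 10.7, 8.64 and 9.63 CPM untreated and 12.7, 13.2 and 12.8 CPM treated. It rose by 0.64 (adjusted p = 3.5e-08) and 0.43 (adjusted p = 0.0093) on the log2 scale, with no overlap between groups. NDUFAF4 rose by 0.49 in ID3-KO cells and stood at 0.34 (adjusted p = 0.071) in WT cells, or 0.48 (adjusted p = 8.4e-07) without the untreated replicate 1. NDUFAF2 (0.19) and NDUFAF7 (0.13) were also higher in ID3-KO cells. NDUFAF6 (-0.47 and -0.50) and ATP5SL (-0.42 and -0.38), an assembly factor of complex I despite its name, were lower in both genotypes. NDUFAF5 was lower in ID3-KO cells (-0.19, against -0.23 and no call in WT cells), and NDUFAF3 was not called (0.02 and -0.13).

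Of the 9 genes for assembly of complex IV, 4 were lower and 1 higher in ID3-KO and 2 were lower in WT cells. Shares of all genes were 34.0% lower and 35.8% higher in ID3-KO and 22.9% and 26.0% in WT cells. Without the WT untreated replicate 1, 4 were lower and 1 higher in WT cells, where 32.5% and 33.9% of all genes were. COX16 (-0.33 and -0.56) and COX20 (-0.91 and -0.72) were lower in both genotypes, and COX20 gave -0.48 and -0.38 on its own strand. COX10, which makes heme O, was lower in ID3-KO cells (-0.31) and at -0.23 (adjusted p = 0.057) in WT cells. The copper chaperone COX17 was higher in ID3-KO cells (0.17) and at 0.03 in WT cells. COX18 was lower in ID3-KO cells (-0.17) and at -0.25 (adjusted p = 0.058) in WT cells. Without the WT untreated replicate 1, all 3 were called in WT cells, COX10 (-0.30) and COX18 (-0.23) lower and COX17 (0.21) higher. COX11 (-0.04 and -0.09), COX14 (0.03 and -0.37), COX15 (0.02 and -0.02) and COX19 (-0.10 and -0.16) were not called.

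**Figure D3:**
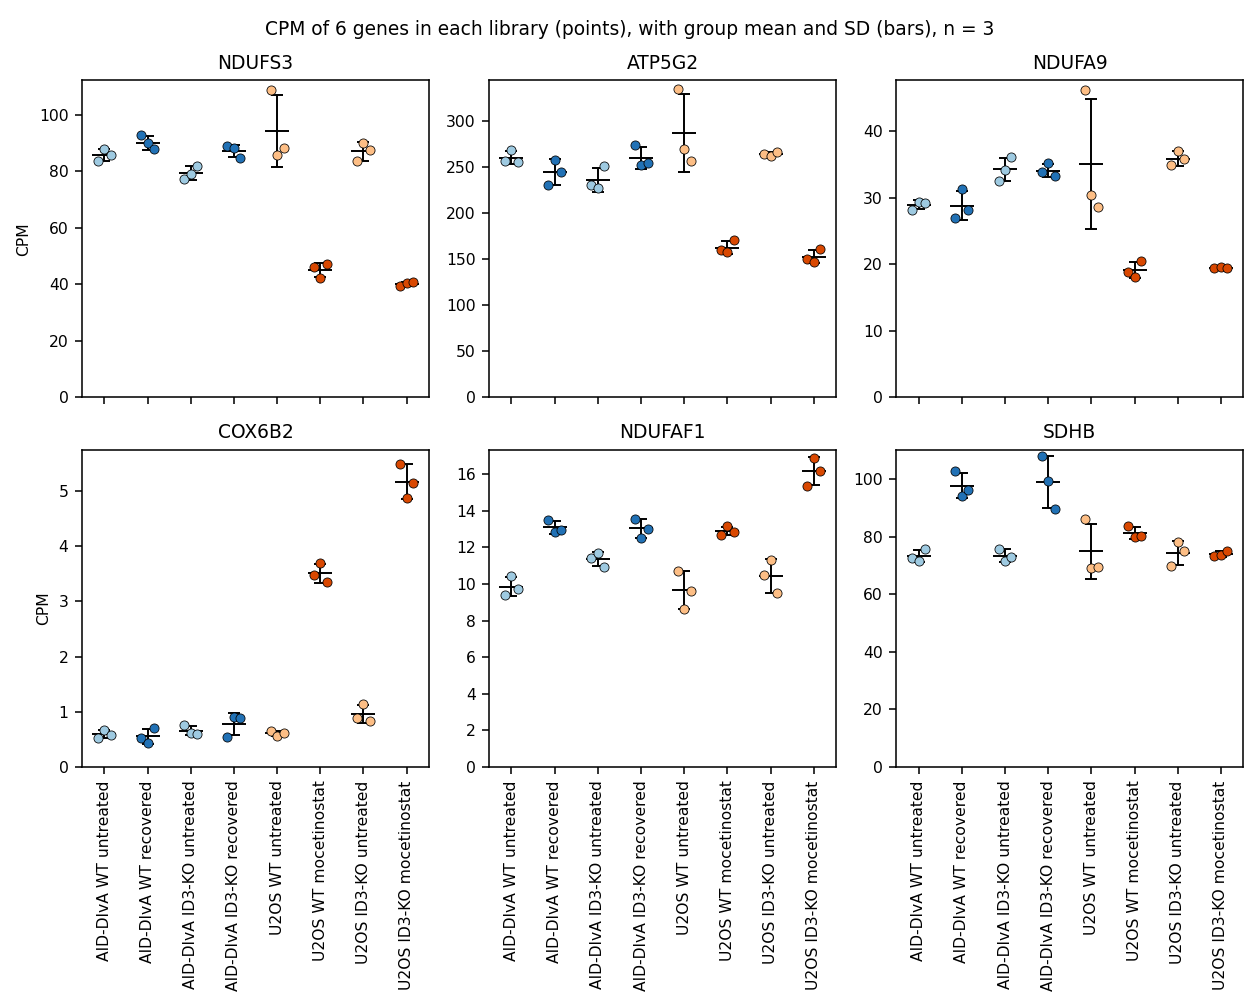
CPM (y axis, from 0) of NDUFS3, ATP5G2, NDUFA9, COX6B2, NDUFAF1 and SDHB in each of the 24 libraries (points), by group (x axis), with the group mean and SD (n = 3). NDUFS3 is at 39.4 to 47.1 CPM in the treated U2OS libraries and at 77.4 CPM or more in all others, COX6B2 is at 3.36 CPM or more only in the treated U2OS libraries, and SDHB is highest in the recovered AID-DIvA libraries.

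After 24 h of recovery AID-DIvA cells showed small rises. In WT cells 32 of 95 genes were higher and 8 lower, where 23.9% of all 20289 genes were higher and 23.0% lower. In ID3-KO cells 28 of 95 were higher and 1 lower, where 20.2% of 20362 genes were higher and 19.9% lower. The members' medians were 0.08 and 0.12 on the log2 scale, against 0.00 and -0.02 over all genes. The lists of higher genes shared 25, which is 78.1% of the WT and 89.3% of the ID3-KO list, and these comparisons share no library. Among the 25 were 9 of the 43 genes lower in both U2OS genotypes (20.9%), beside 25 of all 95 members tested. These 9 included NDUFS5, NDUFS6, NDUFA1, NDUFA6, NDUFB4, NDUFB10, ATP5A1 and ATP5I. Without the ID3-KO recovered replicate 2, 19 genes were called in ID3-KO cells, 18 of them higher, with no share of all genes given.

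ATP5D, the delta subunit in the stalk of the ATP synthase, had the largest called rise in both genotypes. It went from 75.7, 84.6 and 86.4 CPM to 102, 119.6 and 112 CPM in WT cells and from 72.04, 68.002 and 96.2 CPM to 129.7, 109 and 106 CPM in ID3-KO cells. The groups did not overlap, and the log2 changes were 0.44 ± 0.06 (SE, edgeR adjusted p = 6.2e-05) and 0.54 ± 0.13 (adjusted p = 0.0077). SDHB rose from 72.4, 71.6 and 75.7 CPM to 103, 94.1 and 96.3 CPM in WT cells and from 75.7, 71.6 and 72.8 CPM to 108, 99.2 and 89.7 CPM in ID3-KO cells, by 0.42 and 0.43 on the log2 scale, also without overlap. UQCR11 (0.38 and 0.35), NDUFV3 (0.37 and 0.42), NDUFB9 (0.26 and 0.48) and COX5A (0.30 and 0.38) were higher in both genotypes. NDUFAF1 was higher in WT cells (0.42) and at 0.20 (adjusted p = 0.051) in ID3-KO cells.

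Few genes were lower after recovery. In WT cells these were NDUFC2 (-0.59), COX20 (-0.58, and -0.21 on its own strand), NDUFAF3 (-0.25), COX8A (-0.24), UQCRC2 (-0.24), ATP5S (-0.23), NDUFB2 (-0.21) and UQCRQ (-0.12). NDUFC2 was variable, at 9.596, 9.67 and 12.3 CPM untreated and 7.42, 8.36 and 5.31 CPM recovered in WT cells. In ID3-KO cells it was at 17.3, 13.1 and 12.5 CPM and 3.65, 7.17 and 13.96 CPM, where the groups overlapped. Its call in WT cells was lost without the WT recovered replicate 1 (adjusted p = 0.14) and in the fit of all AID-DIvA libraries (adjusted p = 0.23). ATP5S, an accessory gene of the ATP synthase, was the gene lower in ID3-KO cells (-0.33, adjusted p = 0.015), a call lost when the ID3-KO recovered replicate 2 or untreated replicate 1 or 2 was left out (adjusted p = 0.063, 0.074 and 0.053). COX6B2 was at 0.525, 0.66999 and 0.585 CPM untreated and 0.526, 0.437 and 0.699 CPM recovered in WT cells and at 0.756, 0.615 and 0.604 CPM and 0.541, 0.906 and 0.889 CPM in ID3-KO cells, so its groups overlapped and it was not called.

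The responses with and without recovery were compared in a fit of all 24 libraries, as the mean response over both genotypes in U2OS minus that in AID-DIvA cells. The response was more negative in U2OS cells for 74 of 96 genes and more positive for 2, where 27.9% of all 23087 genes were more negative and 29.6% more positive. The members' median difference was -0.40, against 0.03 over all genes. All 9 complex III genes, 29 of 36 complex I subunits, 13 of 15 ATP synthase genes and 11 of 14 complex IV subunits were in the first set, and COX6B2 and NDUFAF1 in the second. Scaling to the library total moved the median of all genes to 0.14. It gave 58 members more negative and 6 more positive, with no share of all genes given. Without the U2OS WT untreated replicate 1, 74 genes were more negative and 4 more positive, where 30.2% and 29.9% of all genes were.

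Among the leading differences by adjusted p were those of NDUFS3 (-1.19 ± 0.07, SE, edgeR adjusted p = 1.1e-13) and COX6B2 (2.38 ± 0.18, adjusted p = 2.1e-11). NDUFA10 (-0.65), ATP5G2 (-0.83), ATP5A1 (-0.50), SDHC (-0.52) and NDUFS6 (-0.86) followed. NDUFS6, an accessory subunit of the matrix arm, went from 107, 113 and 113 CPM to 84.1, 81.5 and 79.6 CPM in U2OS ID3-KO cells and from 92.1, 91.3 and 100.04 CPM to 141, 118 and 106 CPM in AID-DIvA ID3-KO cells. The responses of SDHA (-0.12, adjusted p = 0.10) and ATP5B (-0.07, adjusted p = 0.26) were not called different.

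**Figure D4:**
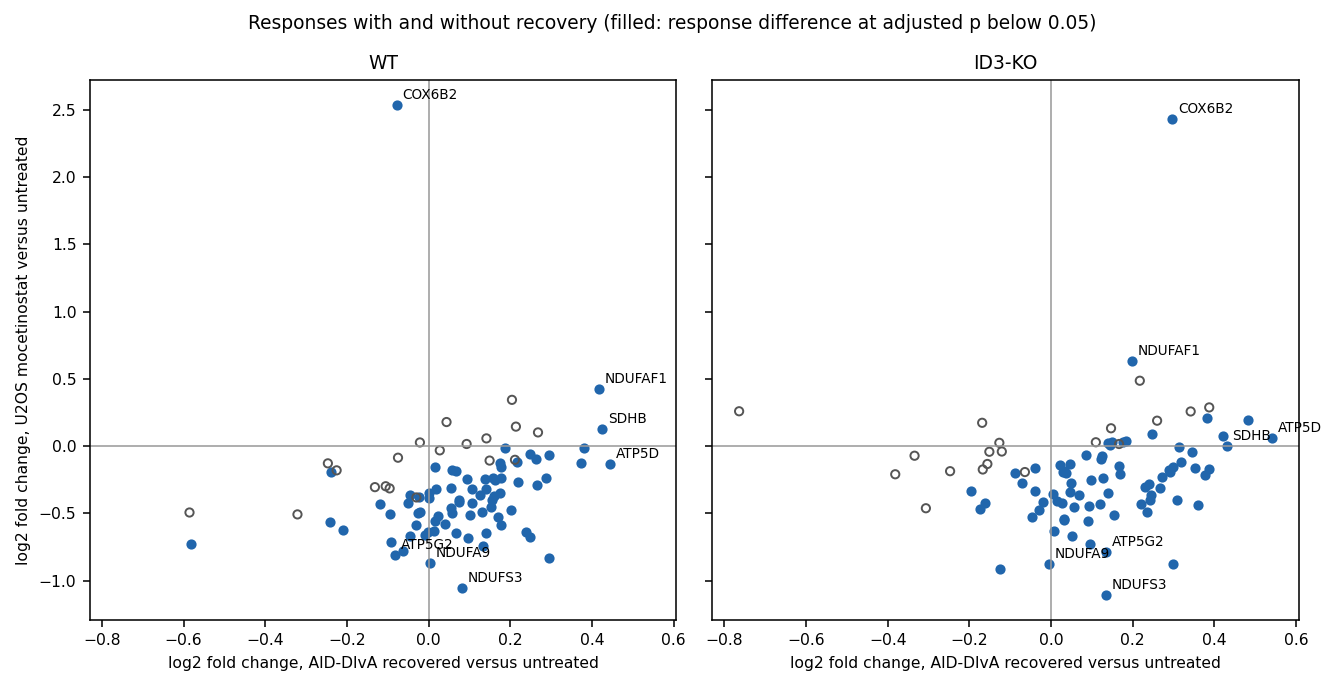
The log2 fold change of each gene in U2OS cells with mocetinostat (y axis) against that in AID-DIvA cells after recovery (x axis), for WT and ID3-KO cells, with filled points where the responses differed in the 24-library fit (adjusted p below 0.05). COX6B2 stands alone at 2.54 and 2.43 in U2OS cells, and NDUFS3 (-1.05 and -1.11) is the lowest.

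Before any treatment, ID3-KO and WT cells differed in some of these genes. In AID-DIvA cells 11 of 95 were higher and 23 lower in ID3-KO cells, where 18.6% of all 20441 genes were higher and 18.1% lower. In U2OS cells 3 of 95 were higher and 6 lower, where 6.56% of 20621 genes were higher and 8.63% lower. The members' medians were -0.04 and -0.10, against 0.00 and -0.01 over all genes. The U2OS counts turned on single libraries: without the WT untreated replicate 1 there were 27 higher and 14 lower (20.5% and 20.6% of all genes) with a median of 0.04, and without ID3-KO untreated replicate 1, 2 or 3 there were 3 genes called. In AID-DIvA cells the count fell to 19 without the WT untreated replicate 2 and to 20 without the ID3-KO untreated replicate 1. For the fits without an ID3-KO or an AID-DIvA library no share of all genes is given.

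All 6 genes lower in U2OS ID3-KO cells (100% of that list and 26.1% of the 23 in AID-DIvA) and 2 of the 3 higher ones (66.7%, and 18.2% of the 11) were called the same way in AID-DIvA cells. NDUFB11, a subunit of the membrane arm of complex I (hg19 chromosome X, 47001615 to 47004903), was the most different of them. It was at 76.9, 81.5 and 80.1 CPM in untreated WT and 41.8, 38.8 and 42.4 CPM in untreated ID3-KO AID-DIvA libraries. In U2OS libraries it was at 145, 102 and 97.9 CPM and 52.4, 54.2 and 53.9 CPM. The ID3-KO libraries were far below the WT ones in both lines, by -0.98 ± 0.05 on the log2 scale (± SE, edgeR adjusted p = 4.4e-10) and -1.11 ± 0.15 (adjusted p = 0.0031), or -0.90 in U2OS cells without the WT untreated replicate 1.

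ATP5C1, the gamma subunit that forms the rotating shaft of the ATP synthase, was at 138, 143 and 148 CPM in WT and 92.9, 96.4 and 89.9 CPM in ID3-KO AID-DIvA libraries. In U2OS libraries it was at 148, 123 and 127 CPM and 84.6, 89.9 and 85.8 CPM. The groups did not overlap, with log2 changes of -0.64 (adjusted p = 1.3e-08) and -0.62 (adjusted p = 0.0040). COX5B, a zinc-binding subunit of complex IV (-0.52 and -0.79), NDUFV3, an accessory subunit of complex I (-0.44 and -0.48), COX19, a complex IV assembly factor (-0.49 and -0.48), and ATP5H, a stalk subunit (-0.35 and -0.52), were lower in both lines. In U2OS cells the calls of NDUFB11, ATP5C1 and COX11 held when any 1 of the ID3-KO untreated libraries was left out, and those of the other 6 genes, COX5B, NDUFV3, COX19, ATP5H, SDHD and UQCRC2, were each lost (adjusted p from 0.060 to 0.099 for COX19, NDUFV3 and ATP5H). Without the WT untreated replicate 1 the U2OS values were -0.52 for COX5B, -0.39 for NDUFV3, -0.40 for COX19 and -0.39 for ATP5H.

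SDHD was higher in ID3-KO cells of both lines, at 39.3, 40.5 and 43.5 CPM in WT and 73.8, 66.8 and 59.1 CPM in ID3-KO AID-DIvA libraries. In U2OS libraries it was at 34.4, 25.2 and 22.9 CPM and 42.99, 42.97 and 39.7 CPM. No groups overlapped, and the log2 changes were 0.67 (adjusted p = 6.5e-07) and 0.60 (adjusted p = 0.032). COX11, which delivers copper to complex IV, was at 31.7, 32.98 and 34.1 CPM against 49.8, 45.4 and 48.1 CPM in AID-DIvA and 30.1, 26.1 and 27.3 CPM against 41.7, 39.1 and 40.7 CPM in U2OS libraries, with log2 changes of 0.51 and 0.54. ATP5G1 was higher in AID-DIvA ID3-KO cells (0.51) and at 0.55 (adjusted p = 0.059) in U2OS cells, where it was 0.78 (adjusted p = 3.5e-19) without the WT untreated replicate 1. The third gene higher in U2OS ID3-KO cells, UQCRC2, was at 0.26 there and 0.10 (adjusted p = 0.070) in AID-DIvA cells.

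**Figure D5:**
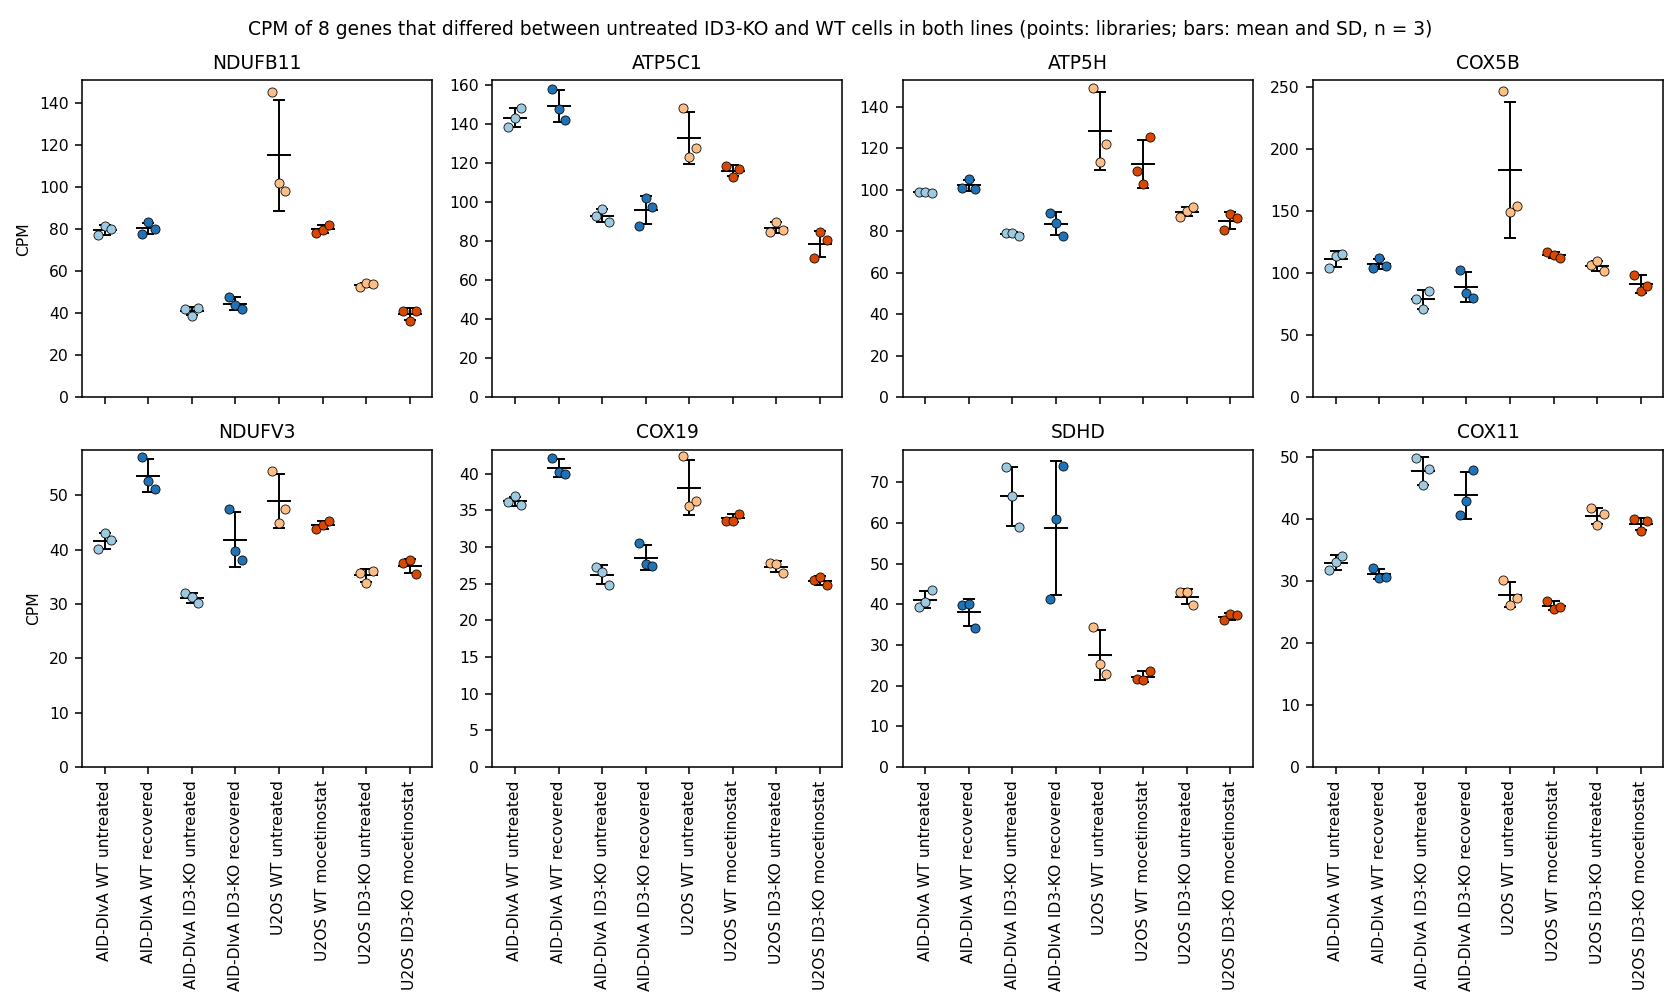
CPM (y axis, from 0) of the 8 genes called the same way between untreated ID3-KO and WT cells in both lines, in each of the 24 libraries (points), by group (x axis), with the group mean and SD (n = 3). NDUFB11, ATP5C1, ATP5H, COX5B, NDUFV3 and COX19 are lower and SDHD and COX11 higher in untreated ID3-KO cells than in untreated WT cells of the same line.

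Whether genotype changed the response itself was tested as an interaction within each line. By edgeR 0 of 95 genes were called in AID-DIvA cells, where 0.762% of all genes were higher and 0.451% lower, and 11 members had an unadjusted p below 0.05. In U2OS cells 0 of 96 were called, where 1.10% of all genes were higher and 1.06% lower, and 7 had an unadjusted p below 0.05. DESeq2 called 1 gene in AID-DIvA cells, UQCRC2, a core protein of complex III (difference 0.26, adjusted p = 0.012), and 0 in U2OS cells. UQCRC2 was also called by edgeR without the ID3-KO recovered replicate 1 (0.28, adjusted p = 0.039). Without the U2OS WT untreated replicate 1, 1 of 96 genes was higher and 4 were lower in U2OS cells, where 4.46% of all genes were higher and 4.56% lower: NDUFS5 (0.28) had a less negative response in ID3-KO cells, and CYC1 (-0.29), NDUFA9 (-0.26), SDHB (-0.24) and ATP5G1 (-0.23) had a lower one. These names were taken after their values were seen.

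Regulators of these genes, listed with POLRMT, TFAM, TFB1M and TFB2M, which work inside mitochondria, moved in both directions. Under mocetinostat in U2OS cells, NRF1 (-0.63 in ID3-KO and -0.55 in WT), GABPA (-0.65 and -0.62), its partner GABPB1 (-0.35 and -0.41), YY1 (-0.56 and -0.52), PPRC1 (-0.91 and -0.73) and POLRMT, the mitochondrial RNA polymerase (-0.45 and -0.35), were lower in both genotypes. TFAM, which packages mitochondrial DNA (0.37 and 0.30), TFB1M (0.78 and 0.79) and PPARGC1B (0.51 and 0.61) were higher in both. ESRRA was higher in ID3-KO cells (0.19, against 0.26 and no call in WT cells) and TFB2M lower in ID3-KO cells (-0.24, against -0.12 and no call in WT cells). After recovery ESRRA (0.79 in ID3-KO and 0.77 in WT), POLRMT (0.60 and 0.57), PPRC1 (0.38 and 0.33) and PPARGC1B (1.06 and 0.61) were higher in both and GABPA (-0.47 and -0.32) lower in both, while NRF1 (-0.13 and -0.13) and YY1 (-0.08 and -0.07) were not called.

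PPARGC1A, the coactivator PGC-1alpha, was the one of the 12 genes in that list with a called interaction in both lines. In U2OS ID3-KO cells it was at 0.562, 0.489 and 0.481 CPM untreated and 6.27, 5.98 and 6.898 CPM treated. In U2OS WT cells it was at 2.34, 4.19 and 4.02 CPM untreated and 5.88, 6.07 and 5.94 CPM treated. The groups did not overlap in either genotype, and the untreated ID3-KO libraries were the lowest. In AID-DIvA ID3-KO cells it went from 0.636, 0.6696 and 0.529 CPM to 2.25, 2.37 and 2.47 CPM and in WT cells from 2.12, 1.75 and 1.42 CPM to 1.26, 1.197 and 1.05 CPM, in opposite directions. The interaction was 2.88 (edgeR adjusted p = 4.3e-05) in U2OS and 2.53 (adjusted p = 5.2e-05) in AID-DIvA cells. PPARGC1B had a called interaction in AID-DIvA cells (0.46, adjusted p = 0.039) and not in U2OS cells (-0.09).

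Among other genes of energy metabolism, proteins of the mitochondrial ribosome, which translate the messages of the mitochondrial genome, were lower in U2OS cells with mocetinostat for 57 of 76 genes in ID3-KO and 38 of 75 in WT cells, with 4 and 1 higher. After recovery 39 and 48 of 76 were higher, with 0 and 2 lower. Of all genes 20.2% and 23.9% were higher and 19.9% and 23.0% lower after recovery. Of 37 further subunits and assembly factors, 22 and 19 were lower and 9 and 3 higher under mocetinostat, among them the complex IV factors PET100 (-1.01 and -1.08) and COA6 (-0.84 and -0.96). Of 17 genes of the citric acid cycle, 7 and 6 were lower and 5 and 4 higher: the NAD-linked isocitrate dehydrogenase subunits IDH3G (-0.94 and -0.84) and IDH3B (-0.78 and -0.82) fell and the NADP-linked IDH2 (1.11 and 0.60) rose. Of 23 glycolysis genes, 10 and 4 were lower and 9 and 7 higher, with the glucose transporter SLC2A3 (2.16 and 2.42) and PDK4, the kinase that restrains pyruvate dehydrogenase (2.70 and 2.18), higher in both. Beside the counts under mocetinostat stand 34.0% lower and 35.8% higher of all genes in ID3-KO and 22.9% and 26.0% in WT cells. The citric acid cycle and glycolysis lists thus lie nearer to the shares of all genes than the ribosome list does. After recovery PDK4 was lower (-1.19 and -0.98) and hexokinase HK2 higher (1.202 and 1.129). NDUFA4L2, a relative of NDUFA4, was higher in ID3-KO cells under mocetinostat (0.90) and after recovery (1.89) and was not called in WT cells (0.65 and 1.04). The genes named from these lists were chosen with their values known.

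Genes of the mitochondrial genome took 5.59% to 9.47% of counts per library. Under mocetinostat in U2OS ID3-KO cells 1 of its 13 protein-coding genes was higher and 1 lower (edgeR, median -0.02). Of all genes 35.8% were higher and 34.0% lower there. In U2OS WT cells none was called and 0 had an unadjusted p below 0.05 (median -0.03), where 26.0% of all genes were higher and 22.9% lower. After recovery 3 of 13 in ID3-KO and 6 of 13 in WT cells were higher and 0 lower. Of all genes 20.2% and 23.9% were higher and 19.9% and 23.0% lower after recovery.

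Promoter letters were last set beside the response in U2OS cells. Of the 43 genes lower in both genotypes, 35 had a promoter in the table, and 15 of these (42.9%) held the YY1 core, against 8 of 42 (19.0%) of the other genes tested. The NRF1 core was in 5 of 35 against 13 of 42, and the ETS core in 10 of 35 against 13 of 42. These shares describe the sets and were not tested.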

How the data were processed

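Stranded total RNA libraries were sequenced as paired reads of 100 bases. The authors aligned them with STAR to hg19 (GRCh37) and counted reads per gene with featureCounts, per the labels and methods. The deposited values are raw counts, neither pooled nor normalised, and those from either strand were used here, with counts of the gene's own strand as an alternative. Groups came from the sample titles. Each comparison was fitted over all genes passing filterByExpr with TMM scaling and the quasi-likelihood test of edgeR 4.0.16 (R 4.3.3), with Benjamini-Hochberg adjustment and a threshold of 0.05. Two-group comparisons used their 6 libraries, interactions the 12 of a line, and the difference of responses all 24. Alternatives were DESeq2 1.42.0, its size factors, library-total scaling, other filters, a replicate block, a fit of all groups of a line and leaving out each library. Named by rule were members called beyond 1 on the log2 scale, the 4 largest called rises and falls per treatment comparison, up to 6 by adjusted p per genotype comparison and 8 for the difference, isoform pairs, SDHA to SDHD, assembly factors, the most abundant member of each complex and the regulators. Other names were chosen after their values were seen. In a simulation of the WT AID-DIvA comparison over 20289 genes, the test found 85% of those given a log2 change of 1, and 8.12% of its calls were unchanged genes. These shares were 69% and 7.83% for the WT U2OS comparison over 21797 genes, and 61% and 3.31% for the AID-DIvA interaction over 21265 genes. The numbers of replicates did not pair libraries. The members and gene lists were chosen with earlier results of these data known. P-values measure the spread between replicates. One member that met the naming rule is not reported here.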

Additional observations from a re-analysis of the deposited data

Results flagged for a closer look

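The response to mocetinostat differed between U2OS cells without recovery and AID-DIvA cells after recovery for 76 of the 96 oxidative phosphorylation genes tested. This was by the test of the difference itself in the fit of all 24 libraries. The response was more negative in U2OS cells for 74 and more positive for 2, where 27.9% and 29.6% of all 23087 genes were. The genes named here were NDUFS3 (-1.191 on the log2 scale), NDUFA10 (-0.647), ATP5G2 (-0.8271), ATP5A1 (-0.4994), SDHC (-0.5184) and NDUFS6 (-0.8625), with the more negative response in U2OS cells, and COX6B2 (2.376), with the more positive one. Stage and line label cannot be told apart.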

How the results depend on the processing

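Leaving out 1 library at a time gave 29 to 46 genes called in recovered WT cells (40 with all libraries), 19 to 35 in recovered ID3-KO cells (29), 26 to 68 in U2OS WT cells with mocetinostat (45), 66 to 71 in U2OS ID3-KO cells (74), 19 to 49 between genotypes in AID-DIvA cells (34), 3 to 41 in U2OS cells (9), 0 to 1 and 0 to 5 for the interactions (0 and 0) and 72 to 79 for the difference of responses (76). A fit of all groups of a line gave 44 genes for U2OS ID3-KO cells with mocetinostat and 15 between U2OS genotypes. For the interactions DESeq2 called 1 gene in AID-DIvA cells, and edgeR without a filter on low counts called 2 in U2OS cells (NDUFS5 and ATP5I, named after their values were seen). The cause of these shifts was not tested, and no shares of all genes are given beside these counts. The members' median between U2OS genotypes (-0.10 with all libraries) ran from -0.18 to 0.037 and that of the U2OS interaction (0.12) from -0.015 to 0.21 when 1 library was left out, and both changed sign without the U2OS WT untreated replicate 1. Same-numbered replicates did not deviate together (36 pairs, correlations of deviations from -0.30 to 0.26, with 6 above 0.1). With the replicate block 33, 23, 42, 74, 28, 9, 0, 0 and 75 genes were called in the 9 comparisons, in the order above.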
